A study of Mus musculus with 16 samples.

Results

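The comparison set whole ovaries of Ex3bERKO mice, which the labels call ERβ knockout, against whole ovaries of control mice, which the labels describe as carrying one allele of each estrogen receptor (ER), all at an age of 1 year. It used 8 of the study's 16 arrays, the 4 titled Ex3bERKO and the 4 titled control, and the members were found by these titles. The study asked what ERα and ERβ do when granulosa cells of aged ovaries change toward another cell type. The other arrays came from 4 Ex3aERKO samples (ERα knockout) and 4 Ex3abERKO samples (lacking both receptors), of the same age and organ. They entered the model for its estimate of the spread between replicates, and the last paragraph sets the Ex3bERKO arrays against them. The control was not labelled wild type. The sources used here give no strain, no promoter or cell type that drives a deletion, and no part of Esr2 that was removed. Whether each sample is another animal is not stated either, so the p-values rest on the spread between these samples, part or all of which may be technical.

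ERβ, the product of Esr2, is a nuclear hormone receptor found in the ovary mainly in granulosa cells, while ERα, the product of Esr1, is found mainly in theca cells and stroma. Granulosa cells surround the oocyte and turn androgens made by theca cells into estrogens, and after ovulation they become luteal cells, which make progesterone from cholesterol. The ovary takes cholesterol from lipoproteins or makes it through the mevalonate pathway, whose genes are switched on together by sterol-regulatory element-binding proteins, and it stores the surplus as esters in lipid droplets coated by perilipins. Sertoli cells are the counterpart of granulosa cells in the testis.

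Each sample was read on a single-colour Agilent array after labelling with the dye Cy3. Levels are the log2 signal of a probe relative to the 75th percentile of its array, so that levels compare arrays and not genes, and every fold change is relative to that percentile. The 75th percentile lay between 1307 and 1806 signal units on the 8 arrays, and 80.4% to 87.6% of spots were well above background. Arrays correlated across probes at r from 0.965 to 0.980 within Ex3bERKO, 0.973 to 0.986 within control and 0.964 to 0.983 between the groups, and these ranges overlapped. Of the 4 slides, each of 4 arrays, slide 1 held Ex3bERKO 2 and control 1, slide 3 held Ex3bERKO 1, Ex3bERKO 4 and control 2, and slide 4 held Ex3bERKO 3 and control 3. Slide 2 held control 4 and no Ex3bERKO array. Deviations from the group mean were partly shared by Ex3bERKO and control arrays of the same slide (r from 0.27 to 0.39 in 4 pairs, against -0.31 to 0.10 in 12 pairs on different slides). Across probes, control 2 correlated at 0.982 and 0.983 with Ex3bERKO 1 and 4 of its slide, and at 0.967 and 0.969 with Ex3bERKO 2 and 3. With control 1, 3 and 4 it correlated at 0.973, 0.975 and 0.979.

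The probe of Esr2 did not pass the test. Its level was 0.04, -0.58, 1.00 and 0.84 on Ex3bERKO 1 to 4, against -0.22, 0.34, -0.33 and -0.23 on control 1 to 4. The groups overlapped, and the difference was 0.43 ± 0.51 on the log2 scale (SE, limma, adjusted p = 0.914). This does not check the labels, because the removed part of the gene is not known here and a probe outside it can still read the remaining transcript. Esr1 differed by -0.40 ± 0.38 (limma, adjusted p = 0.856). Both probes were lower in Ex3abERKO than in Ex3bERKO, with values in the last paragraph of these results. Markers of the labelled organ were present: Foxl2, a transcription factor of granulosa cells, Fshr, the receptor for follicle-stimulating hormone, and Zp3, an egg coat protein, were well above background on all 8 arrays. Probes are 60 bases long, and the first 30 bases of 6 of them are shown, 5′ to 3′, because the results below rest on what these probes read. No base is in capitals, since none is singled out. The Cyp17a1 probe spans 614 bases of the genome, so it crosses an intron.
Esr2 probe, chr12:74079895-74079954, minus strand (mm7): gactgtagaacggtgtggtcatcaaatcga
Plin4 probe, chr17:54259939-54259998, minus strand (mm7): cagcctgtgggtatgagacctgccctgaat
Plin5 probe, chr17:54269931-54269990, minus strand (mm7): gctggaggaagacctggtgcccacatcatc
Mmel1 probe, chr4:153884997-153885056, plus strand (mm7): ttccaccctctccatagtgtgtggctaaat
Eppin probe, chr2:164329000-164329059, minus strand (mm7): agctcccagtttacttccatgtagctctca
Cyp17a1 probe, chr19:46564738-46565351, minus strand (mm7): cggtggcccccttgctcatcccacacaagg

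In all, 247 of 24591 features tested (1.00%) were called at an adjusted p under 0.05 by limma with Benjamini-Hochberg adjustment, 94 higher (0.382%) and 153 lower (0.622%) in Ex3bERKO, and 212 of them had a gene symbol. The difference was at least 2-fold for 217. On all 4 Ex3bERKO arrays, each of the 247 lay on the called side of the control mean. For 243 the groups did not overlap, which over all features was so for 3.75% upward and 4.24% downward. Both counts follow in large part from the calling, which used the same values. They describe the called genes and do not test whether changes hold on all 4 arrays. In the other 4 called genes, 1 array crossed over. C1qtnf3, a secreted protein related to complement C1q, was at -2.94, -1.62, -2.39 and -5.74 on Ex3bERKO 1 to 4, and at -7.16, -6.60, -6.68 and -5.43 on control 1 to 4, so that Ex3bERKO 4 lay among the controls. Dhcr7, Hcn3 and Prxl2b overlapped because control 2 lay at the level of an Ex3bERKO array; these 4 genes were singled out for the overlap after their values were seen. Among called genes, the Ex3bERKO array nearest to control was array 4 for 78, array 1 for 72, array 2 for 65 and array 3 for 32. Leaving out 1 array changed the number called: it was 120, 108 and 118 without control 1, 3 or 4, and 117 without Ex3bERKO 3. Without Ex3aERKO 2, Ex3abERKO 2 and control 4, which topped the liver, oviduct or erythroid lists and are called the 3 marker-high arrays below, it was 63, and in a model of the 8 arrays alone it was 85. A set of 94 features (26 higher, 68 lower) was called in each fit that left out 1 of the 8 arrays and with slide as a block. Genes called "robust" below are from this set. The word does not cover the model of the 8 arrays alone or the fit without the 3 marker-high arrays, in which many of the robust genes below were not called.

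A pair of perilipins, which coat lipid droplets, fell in Ex3bERKO. Plin4, found on newly formed droplets, was at -0.18, 0.51, -1.37 and -0.43 on Ex3bERKO 1 to 4, against 5.61, 4.34, 5.31 and 4.97 on control 1 to 4. All Ex3bERKO arrays lay far below all controls, and Plin4 fell by 5.43 ± 0.38 (43.0-fold, limma, adjusted p = 7.00e-06). Plin5, which links droplets to mitochondria, was at -1.98, -1.36, -1.29 and -2.63 on Ex3bERKO 1 to 4, against 3.76, 0.83, 3.54 and 3.59 on control 1 to 4. It fell by 4.75 ± 0.55 (26.8-fold, limma, adjusted p = 0.00115), with control 2 lowest among the controls but still above every Ex3bERKO array. The genes are neighbours on chromosome 17, with 0 protein-coding gene starts between them in RefSeq. Both were robust, and both stayed called in a model of the 8 arrays alone and without the 3 marker-high arrays. The other perilipins did not pass: Plin2, which coats droplets in most cells, differed by 0.15 ± 0.23 (limma, adjusted p = 0.955), Plin1 by 0.47 and Plin3 by -0.17. Of 22 measured lipid droplet genes, 0 rose and 2 fell, leaving 20 that did not pass, where 0.622% of all features were called lower. The median change was -0.15, beside 0.01 over all features.

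Perilipins are also abundant in fat cells, which can adhere to an ovary. The adipose list held 12 measured genes, of which 0 were called (median change -0.54), where 1.00% of all features were called. Its median per array, relative to the control mean, was 0.59, -0.47, -0.89 and -0.93 on Ex3bERKO 1 to 4, against 0.61, 0.22, 0.06 and -1.08 on control 1 to 4, so the groups overlapped. Adipoq, a hormone made by fat cells, differed by -1.47 ± 1.00 (limma, adjusted p = 0.754). Whether adhering fat had a part in the change of the perilipins was not tested. In whole tissue, fewer cells of a type and less RNA per cell cannot be told apart, here and in every result that follows.

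**Figure D1:**
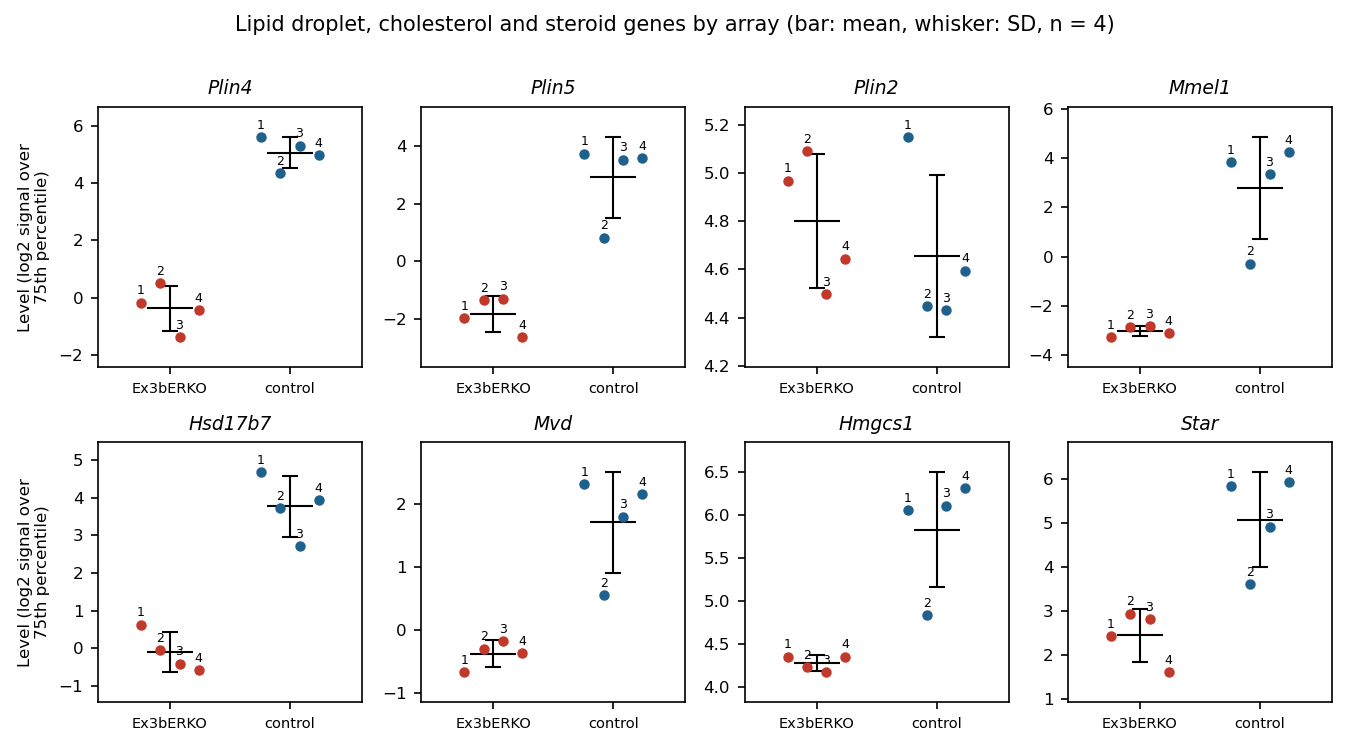
Level of 8 genes (log2 signal over the array's 75th percentile, vertical axis, its range set per panel) on each Ex3bERKO array (red, left) and control array (blue, right), numbered by replicate, with the mean as a bar and the SD as a whisker (n = 4 each). Plin4 lay between -1.37 and 0.51 on Ex3bERKO arrays and between 4.34 and 5.61 on control arrays, while Plin2 overlapped. Control 2 was the control nearest to Ex3bERKO for Plin4, Plin5, Mmel1, Mvd, Hmgcs1 and Star.

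Cholesterol synthesis genes were lower as well. Of 21 measured genes of the pathway, 0 rose, 5 fell and 16 missed the threshold, where 0.622% of all features were called lower. The median change was -0.84, and 20 of the 21 differences were below 0, against 48.6% of all features. The number that fell was 2 with slide as a block, and 1 in a model of the 8 arrays alone and without the 3 marker-high arrays. That 1 gene was Hsd17b7 in both settings. For 11 of the 21, all Ex3bERKO arrays lay below all controls (4.24% of all features). Hsd17b7, an enzyme that acts in cholesterol synthesis and on sex steroids, was at 0.62, -0.05, -0.41 and -0.58 on Ex3bERKO 1 to 4, against 4.68, 3.73, 2.72 and 3.95 on control 1 to 4. It fell by 3.88 ± 0.45 (14.7-fold, limma, adjusted p = 0.00115) and was robust. Mvd, which makes isopentenyl diphosphate, was at -0.67, -0.29, -0.17 and -0.36 on Ex3bERKO 1 to 4, against 2.31, 0.56, 1.80 and 2.16 on control 1 to 4. It fell by 2.08 ± 0.35 (4.23-fold, limma, adjusted p = 0.00910) and was robust, but it was not called in a model of the 8 arrays alone (limma, adjusted p = 0.0696) or without the 3 marker-high arrays (0.0927).

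The calls of the other 3 genes of the pathway were lost in most fits that left out 1 array, with differences of similar size. Hmgcs1, the enzyme that makes HMG-CoA, was at 4.35, 4.24, 4.17 and 4.36 on Ex3bERKO 1 to 4, against 6.05, 4.84, 6.10 and 6.31 on control 1 to 4. The Ex3bERKO arrays were within 0.19 of each other, all below the controls, and Hmgcs1 fell by 1.55 ± 0.32 (limma, adjusted p = 0.0328), in the same direction with its other 2 probes. That call was kept only without control 2 among the 8 fits that left out an array, and was lost in the other 7 (limma, adjusted p = 0.0607 to 0.125) and with slide as a block (0.0709). The difference was -1.57 to -1.38 in those 7 fits and -1.87 without control 2. Fdps, which makes farnesyl diphosphate, fell by 1.86 ± 0.35 (limma, adjusted p = 0.0189), a call lost without control 1, 3 or 4 or Ex3bERKO 2 or 3 (0.0506 to 0.0760) and with slide as a block (0.0574). Its groups did not overlap, and its difference was -2.18 to -1.64 over the 8 fits. The other Fdps probe, well above background on all 8 arrays, differed by -1.315 and was not called (limma, adjusted p = 0.133). Dhcr7, which makes cholesterol from its last precursor, fell by 1.99 ± 0.44 (limma, adjusted p = 0.0470), a call kept only without control 2 and lost in the other 7 such fits (0.0735 to 0.166) and with slide as a block (0.107). Its difference was -2.07 to -1.67 in those 7 fits and -2.58 without control 2. Control 2 lay at 2.25 for Dhcr7, among the Ex3bERKO values of 1.97, 1.92, 1.96 and 2.28, while the other controls were at 4.98, 3.94 and 4.91. Relative to the control mean, the median of the list was -0.98, -0.80, -0.68 and -1.15 on Ex3bERKO 1 to 4, against 0.26, -0.64, -0.06 and 0.46 on control 1 to 4. Control 2 thus stood close to the Ex3bERKO arrays in this pathway, and both Ex3bERKO arrays of its slide lay below it.

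Sqle, which oxidises squalene, differed by -1.03 ± 0.28 (limma, adjusted p = 0.110). All Ex3bERKO arrays lay below all controls for Sqle, and it passed without control 2 (limma, adjusted p = 0.0254). Srebf2, which encodes the regulator of these genes, differed by -0.17 ± 0.17 (limma, adjusted p = 0.876). Of 19 genes of cholesterol uptake and regulation, 0 were called (median change -0.11). Of 16 genes of fatty acid synthesis, 0 were called, with a median of -0.43 and 13 differences below 0, and Fasn, the fatty acid synthase, differed by -0.24 ± 0.19. Of 26 genes of fatty acid use, 0 were called (median 0.02). Beside these 3 lists, 1.00% of all features were called, so 0 called in a short list does not show that its genes were unchanged.

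Promoters of Hmgcs1, Mvd and Hsd17b7 are shown because sterol-regulatory element-binding proteins are known to act on genes of this pathway together with nuclear factor Y, which binds the CCAAT box. They run 5′ to 3′ on the gene's strand and come from RefSeq (GRCm38.p6), which had a promoter for 16 of the 21 genes. Capitals mark CCAAT on either strand (written ATTGG on the other) and, in Hmgcs1, the sterol regulatory element TCACNCCAC, and the marked motifs do not overlap.
Hmgcs1 promoter, chr13:119690101-119690400, plus strand (GRCm38.p6): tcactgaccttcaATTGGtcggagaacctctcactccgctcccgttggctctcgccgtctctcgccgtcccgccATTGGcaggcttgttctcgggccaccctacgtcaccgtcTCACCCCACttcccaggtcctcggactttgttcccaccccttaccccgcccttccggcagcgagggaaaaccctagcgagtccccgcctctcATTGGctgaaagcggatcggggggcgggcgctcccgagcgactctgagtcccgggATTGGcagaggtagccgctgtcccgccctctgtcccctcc
Mvd promoter, chr8:122443373-122443672, minus strand (GRCm38.p6): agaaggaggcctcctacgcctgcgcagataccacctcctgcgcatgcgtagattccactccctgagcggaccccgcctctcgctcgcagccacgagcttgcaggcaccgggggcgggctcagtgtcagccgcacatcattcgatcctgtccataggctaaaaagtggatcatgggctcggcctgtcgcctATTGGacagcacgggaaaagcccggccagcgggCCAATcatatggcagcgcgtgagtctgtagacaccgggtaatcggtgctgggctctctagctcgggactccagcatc
Hsd17b7 promoter, chr1:169969156-169969455, minus strand (GRCm38.p6): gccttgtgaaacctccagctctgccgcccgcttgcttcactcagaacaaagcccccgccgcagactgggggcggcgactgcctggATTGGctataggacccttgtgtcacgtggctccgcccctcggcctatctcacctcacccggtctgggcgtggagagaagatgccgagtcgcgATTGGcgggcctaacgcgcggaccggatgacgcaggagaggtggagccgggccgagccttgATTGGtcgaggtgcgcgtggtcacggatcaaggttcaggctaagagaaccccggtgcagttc
The Hmgcs1 window held 4 CCAAT boxes and 1 sterol regulatory element, the Mvd window 2 CCAAT boxes and the Hsd17b7 window 3. CCAAT was present on either strand for 15 of the 16 cholesterol synthesis genes with a promoter (93.8%), against 41.1% of 27025 genes with a promoter of the same length. Windows ran from 250 bases before the start to 50 after it. A gene was counted if any of its promoters matched, so a gene with several promoters would have more chances to match. Among called genes it was present for 29 of 55 higher genes (52.7%) and 54 of 111 lower genes (48.6%). TCACNCCAC was present for 1 of the 16 (6.25%), Hmgcs1, against 1.44% of all genes. The full palindromic estrogen response element was present for 0 of the 55 higher and 0 of the 111 lower genes, and for 0.074% of all genes. A match is a description of the letters, and a missing match says only that these letters are not in the window.

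Differences in luteal genes were all below 0, and steroid-making genes went in both directions. Star, which carries cholesterol into mitochondria for steroid synthesis, was at 2.42, 2.94, 2.82 and 1.60 on Ex3bERKO 1 to 4, against 5.84, 3.61, 4.92 and 5.94 on control 1 to 4. It fell by 2.63 ± 0.44 (6.19-fold, limma, adjusted p = 0.00967), with no overlap and with its other probe also lower, and it was robust. In a model of the 8 arrays alone it was not called (limma, adjusted p = 0.101), nor without the 3 marker-high arrays (0.0701). Of 11 luteal genes, 2 fell (Star and Hsd17b7), 0 rose and 9 did not pass, where 0.622% of all features were called lower. With slide as a block 3 fell, and in a model of the 8 arrays alone or without those 3 arrays 1 fell, Hsd17b7. Hsd17b7 is also in the cholesterol and steroid synthesis lists, and Star in the steroid synthesis list, so the counts of these lists share genes. All 11 differences were below 0, the median was -1.15, and in 8 of 11 all Ex3bERKO arrays lay below all controls (4.24% of all features). Among those 8, Ptgfr, the receptor for prostaglandin F2α, which ends luteal life, differed by -4.57 (limma, adjusted p = 0.0822), Cyp11a1, which makes pregnenolone from cholesterol, by -1.06 ± 0.32 (0.171), and Prlr, the prolactin receptor, by -1.03 ± 0.31 (0.180). Akr1c18, which inactivates progesterone in regressing corpora lutea, spread widely in both groups. It was at 0.06, 6.70, -0.79 and -2.57 on Ex3bERKO 1 to 4 and at 7.17, 2.91, -2.79 and -1.16 on control 1 to 4, and both highest arrays lay on slide 1.

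Cyp17a1, which makes androgens in theca cells, was higher. It was at 3.63, 4.19, 3.06 and 3.11 on Ex3bERKO 1 to 4, against 0.55, 2.16, 0.07 and 0.19 on control 1 to 4. Every Ex3bERKO array was above every control, and it rose by 2.75 ± 0.38 (6.75-fold, limma, adjusted p = 0.00302). It was robust but was not called in a model of the 8 arrays alone (limma, adjusted p = 0.0685). Hsd17b3, which makes testosterone in the testis, rose by 3.79 ± 0.80 (13.9-fold, limma, adjusted p = 0.0375) with uneven arrays, described with the spread below. That call was lost without Ex3bERKO 2 or 3 or any 1 control (limma, adjusted p = 0.0605 to 0.125) and in a model of the 8 arrays alone (0.138) or without the 3 marker-high arrays (0.191), and was kept with slide as a block (0.0151). Cyp19a1, the aromatase, differed by 0.94 ± 0.60 (limma, adjusted p = 0.723), with control 2 at 3.56 and the other controls at 0.99, 1.01 and 0.70. Of 18 steroid synthesis genes, 2 rose (Cyp17a1 and Hsd17b3) and 2 fell (Star and Hsd17b7), leaving 14 (median -0.41). Over all features, 0.382% were called higher and 0.622% lower. Of 10 theca and Leydig cell genes, the same 2 rose (Cyp17a1 and Hsd17b3, beside 0.382% of all features) and 0 fell, leaving 8 (median 0.17).

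The other robust genes that fell most were of mixed kinds. Mmel1, a neprilysin-like peptidase, fell by 5.80 ± 0.72 (55.8-fold, limma, adjusted p = 0.00149). It was at -3.27, -2.87, -2.82 and -3.12 on Ex3bERKO 1 to 4, against 3.84, -0.29, 3.34 and 4.23 on control 1 to 4. The Ex3bERKO arrays agreed closely, control 2 stood apart from the other controls, and without control 2 the difference was -6.83. In a model of the 8 arrays alone Mmel1 was not called (limma, adjusted p = 0.0533). Wnt10b, a Wnt ligand, was at -4.38, -3.62, -5.53 and -5.73 on Ex3bERKO 1 to 4, against 0.55, 0.22, 0.14 and -0.45 on control 1 to 4. It fell by 4.93 ± 0.61 (30.5-fold, limma, adjusted p = 0.00149). Runx2, a runt transcription factor that is induced in ovulating follicles, was at -1.47, -0.90, -1.91 and -2.22 on Ex3bERKO 1 to 4, against 2.78, 1.33, 2.83 and 2.77 on control 1 to 4. It fell by 4.05 ± 0.48 (16.6-fold, limma, adjusted p = 0.00115), and it was the 1 called gene among 14 of ovulation (0 rose, 1 fell, median 0.14), beside 0.622% of all features called lower.

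Cldn18, a tight junction claudin, fell by 4.70 ± 0.60 (limma, adjusted p = 0.00149), and it was well above background on 2 of 4 Ex3bERKO arrays. Saa2, an acute-phase serum amyloid protein, fell by 4.19 ± 0.57, and close paralogues may share its probe. Cemip, which takes part in breaking down hyaluronan, fell by 3.99 ± 0.63, and its other 3 probes differed by -3.80, -1.81 and -0.35, of which the first was called. Elapor1, a membrane protein of the endosome and lysosome, fell by 4.15 ± 0.59, Pik3c2g, a lipid kinase, by 4.16 ± 0.64, and Ssu2 by 4.38 ± 0.56, and these 3 were not called in a model of the 8 arrays alone (limma, adjusted p = 0.0626 for Elapor1, 0.0814 for Pik3c2g and 0.0626 for Ssu2). Pik3c2g was also not called without the 3 marker-high arrays (0.0678), and its other probe, well above background on all 8 arrays, differed by -0.07 (limma, adjusted p = 0.992). Cntn3, a contactin of neurons, was well above background on no Ex3bERKO array and on all 4 controls. It was called lower in Ex3bERKO (limma, adjusted p = 7.00e-06), a test of the levels as read, which include signals not well above background. The bound, at least 3.17-fold lower, was not itself tested. The transcript D630023F18Rik fell by 4.04 ± 0.50, and it was well above background on 3 of 4 Ex3bERKO arrays. For all of these, the groups did not overlap and the difference had the same sign within slides 1, 3 and 4.

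Among the robust genes that rose, Eppin changed most. Eppin, a protease inhibitor of the testis and epididymis, was at 0.42, 0.46, 0.97 and -0.63 on Ex3bERKO 1 to 4, against -3.59, -2.58, -2.99 and -3.50 on control 1 to 4. All Ex3bERKO arrays were above all controls, and it rose by 3.47 ± 0.40 (11.1-fold, limma, adjusted p = 0.00115).

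Other robust genes that rose were of mixed kinds. Gsta3, a glutathione transferase, was at 3.35, 4.82, 5.01 and 2.89 on Ex3bERKO 1 to 4, against 1.42, 1.48, 1.37 and 1.50 on control 1 to 4. The controls were nearly level and the Ex3bERKO arrays uneven, and Gsta3 rose by 2.57 ± 0.38 (5.96-fold, limma, adjusted p = 0.00415), a call lost in a model of the 8 arrays alone (0.0753). Ptgr1, which inactivates leukotrienes and prostaglandins, was at 4.49, 4.96, 5.08 and 4.41 on Ex3bERKO 1 to 4, against 3.00, 2.77, 2.82 and 2.73 on control 1 to 4. It rose by 1.91 ± 0.32 (limma, adjusted p = 0.00953). Cyp4f15, a cytochrome P450 of lipid mediators, rose by 2.78 ± 0.40 (6.85-fold, limma, adjusted p = 0.00356). Cela3b, a digestive elastase of the pancreas, rose by 2.42 ± 0.35 (0.00373). Scara5, a ferritin receptor, rose by 1.84 ± 0.24 (0.00149) and Gsdme, a pore-forming gasdermin, by 1.63 ± 0.28 (0.0117), but the calls of both were lost when the probes of a gene were averaged. The other probes of Gsdme differed by 0.13 to 0.59 and the other probe of Scara5 by 0.13, none of them called. Fyb2, an adaptor protein, rose by 2.95 ± 0.46, Chrdl1, an antagonist of bone morphogenetic proteins, by 2.15 ± 0.36 (0.80 with its other probe, not called), Klhl29 by 1.71 ± 0.23 and the kinase Smok4a by 2.19 ± 0.38. Fyb2 and Chrdl1 were lost both in a model of the 8 arrays alone (limma, adjusted p = 0.0626 each) and without the 3 marker-high arrays (0.0678 and 0.0775). Klhl29 was lost in the first (0.0533), Smok4a in the second (0.0678), and Gsdme in both (0.117 and 0.115). Rtl3, derived from a retrotransposon, was called higher (limma, adjusted p = 0.00149), but it was well above background on 3 of 4 Ex3bERKO arrays and on no control, so no fold is given, and the call was lost with normexp background correction.

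**Figure D2:**
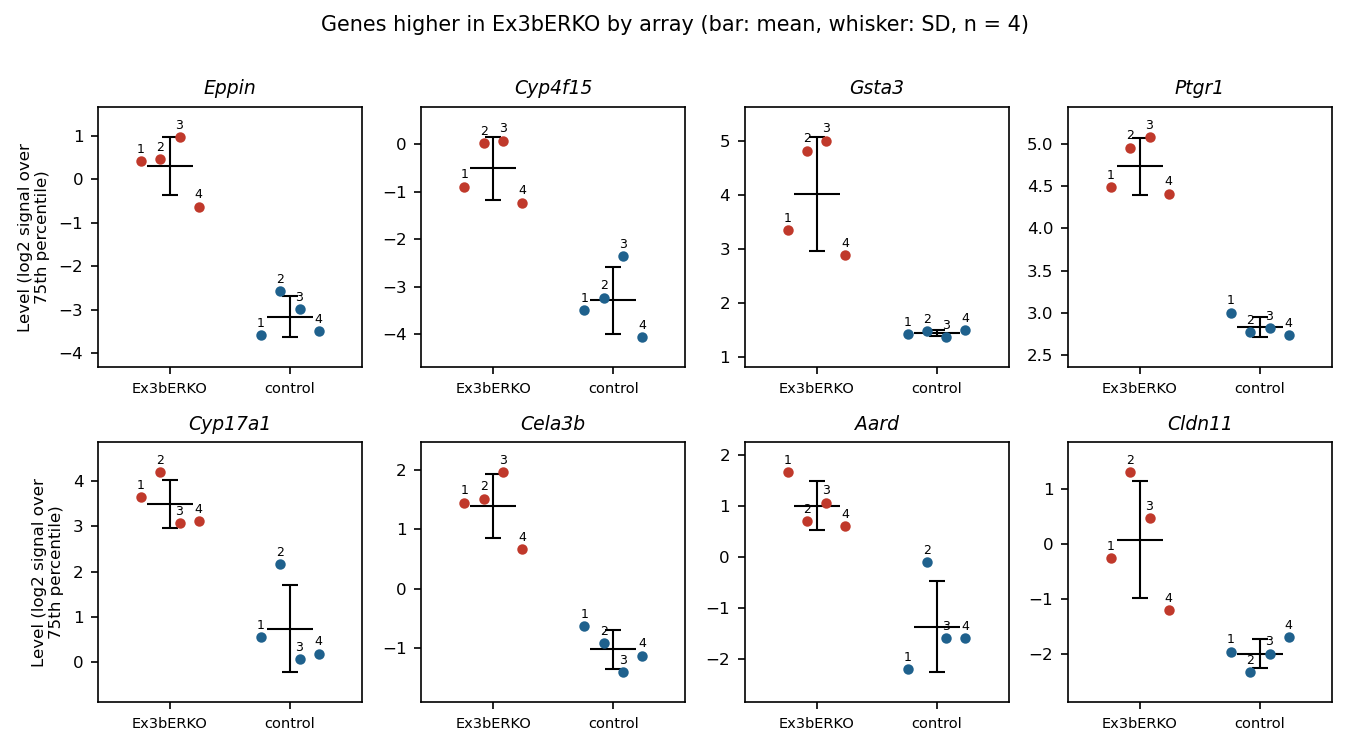
Level of 8 genes (log2 signal over the array's 75th percentile, vertical axis, its range set per panel) on each Ex3bERKO array (red, left) and control array (blue, right), numbered by replicate, with the mean as a bar and the SD as a whisker (n = 4 each). Gsta3 spread between 2.89 and 5.01 over Ex3bERKO arrays and between 1.37 and 1.50 over control arrays, and no panel shows an overlap of the groups.

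Genes of the supporting cells were tested because the study concerns granulosa cells changing toward another cell type. Among 17 genes of Sertoli cells, 2 passed as higher, 0 as lower and 15 in neither direction, where 0.382% of all features were called higher. The median was 0.60, with 15 differences above 0. In 4 of 17 all Ex3bERKO arrays lay above all controls, against 3.75% of all features. Aard, a Sertoli-enriched gene, was at 1.65, 0.70, 1.06 and 0.60 on Ex3bERKO 1 to 4, against -2.19, -0.10, -1.58 and -1.59 on control 1 to 4. It rose by 2.37 ± 0.46 (limma, adjusted p = 0.0224), a call lost without control 1, 3 or 4 or Ex3bERKO 1 or 3 (0.0673 to 0.0812) and with slide as a block (0.0520). Cldn11, a claudin of the junctions that Sertoli cells form, was at -0.25, 1.31, 0.47 and -1.20 on Ex3bERKO 1 to 4, against -1.95, -2.33, -1.99 and -1.69 on control 1 to 4. It rose by 2.07 ± 0.46 (limma, adjusted p = 0.0458), a call kept only without Ex3bERKO 4 and lost in the other 7 fits that left out an array (0.0738 to 0.148), though kept with slide as a block (0.0394). Both calls were lost in a model of the 8 arrays alone (limma, adjusted p = 0.0814 for Aard and 0.129 for Cldn11) and without the 3 marker-high arrays (0.0862 and 0.181).

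The genes that direct Sertoli cell fate did not pass. Sox9, the master factor, was at -1.66, -1.70, -1.84 and -2.83 on Ex3bERKO 1 to 4 and at -2.84, -2.54, -2.26 and -2.12 on control 1 to 4, which overlapped, and differed by 0.43 ± 0.37 (limma, adjusted p = 0.840). Dmrt1, which maintains the male fate, did not stand well above background on any of the 8 arrays. Among 10 genes used by both supporting cell types, 0 were called (median 0.28), and Amh, anti-Müllerian hormone, differed by 0.31 ± 0.45 (limma, adjusted p = 0.949). Of 18 granulosa cell genes, 0 were called (median 0.26), and Foxl2 differed by -0.10 ± 0.15 (limma, adjusted p = 0.951) and Fshr by 0.51 ± 0.38 (0.795). With 1.00% of all features called, 0 called in lists this short does not show that their genes were unchanged. Of 13 genes of the male reproductive tract, 1 rose, Eppin, and 0 fell (median 0.70), where 0.382% of all features were called higher. In this list, Cst8, an epididymal cystatin, differed by -2.48 (limma, adjusted p = 0.0731), and its Ex3bERKO arrays lay below the controls.

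Oocyte genes were uneven over the Ex3bERKO arrays. Of 21, 0 were called (beside 1.00% of all features), 20 differences were above 0 and the median was 0.73. The median per array, relative to the control mean, was 1.03, -0.54, 1.15 and 1.15 on Ex3bERKO 1 to 4, against -0.65, 0.43, 0.23 and -0.08 on control 1 to 4. Ex3bERKO 2 was thus lower than the other 3, and Gdf9, an oocyte growth factor, was at 4.66, 2.88, 4.80 and 4.94 on Ex3bERKO 1 to 4, against 2.99, 4.16, 3.89 and 3.55 on control 1 to 4. On slide 1, Ex3bERKO 2 and control 1 were each the lowest array of their group in this list. The estrogen response list had 9 measured genes, of which 0 were called (median 0.34), and Greb1, an estrogen-induced gene, differed by 0.34 ± 0.36 (limma, adjusted p = 0.889). Pgr, the progesterone receptor, was left out by the filter on dim probes.

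Several genes of wide range in Ex3bERKO were high on arrays 2 and 3. They are given as values without a test, since they were chosen by their range: 15 genes whose range over Ex3bERKO was widest among those with a control range at least 4 times narrower. Over the 17958 features with a symbol that 4 or more of the 8 arrays read well above background, 722 had a range over Ex3bERKO at least 4 times that over control, and 508 had the reverse. Insl3, a peptide hormone of testicular Leydig cells and ovarian theca cells, was at 0.42, 5.65, 6.23 and -0.41 on Ex3bERKO 1 to 4, against -0.26, -0.51, -0.02 and -0.16 on control 1 to 4. The gene overlaps Jak3 in the annotation. The brightest Jak3 probe was at 4.09 and 4.88 on Ex3bERKO 2 and 3 and at -1.65 on Ex3bERKO 4, with Ex3bERKO 1 just above the controls, against -1.79 to -1.21 on control, whereas the other Jak3 probe, well above background on all 8 arrays, averaged -2.97 in Ex3bERKO and -2.88 in control. The probes of Jak3 thus disagree, and whether the brighter one reads Insl3 transcripts was not tested. Sult1e1, which sulphates estrogens and so inactivates them, was at -3.31, 2.46, 2.88 and -3.65 on Ex3bERKO 1 to 4, against -3.10, -3.78, -4.24 and -4.61 on control 1 to 4. Ptgds, a prostaglandin D synthase of Sertoli cells and other tissues, was at -0.70, 3.57, 4.80 and -0.72 on Ex3bERKO 1 to 4, against -0.46, -1.05, -0.83 and -0.72 on control 1 to 4. In each of these, Ex3bERKO 1 and 4 lay within or just outside the control range and Ex3bERKO 2 and 3 far above it.

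In 5 further genes Ex3bERKO 2 and 3 were also the highest arrays. Of these, Hsd17b3 was not among the 15 chosen by range (3.88 over Ex3bERKO) and is set here as a called gene. Lcn2, an iron-binding lipocalin, was at -3.01, 1.73, 2.42 and -3.57 on Ex3bERKO 1 to 4, against -5.26, -5.21, -5.06 and -4.16 on control 1 to 4. Hsd17b3 was at -2.31, 1.25, 1.17 and -2.63 on Ex3bERKO 1 to 4, against -4.34, -4.51, -4.43 and -4.40 on control 1 to 4. In these 2 genes, all 4 Ex3bERKO arrays exceeded every control, by far more on arrays 2 and 3. Klk1b27, a glandular kallikrein with close paralogues, was at -2.85, 0.35, 2.19 and -4.39 on Ex3bERKO 1 to 4, against -4.17, -5.32, -5.58 and -5.75 on control 1 to 4. C7, a complement component, was at -2.60, 1.54, 0.36 and -5.28 on Ex3bERKO 1 to 4, against -4.12, -4.62, -3.73 and -3.72 on control 1 to 4. Fam229a was at -7.42, -2.76, -3.66 and -6.49 on Ex3bERKO 1 to 4, against -7.24, -6.84, -6.34 and -7.32 on control 1 to 4, and it was well above background on 3 Ex3bERKO arrays and 1 control. In these 3 genes, Ex3bERKO 1 or 4 lay among or below the controls. Ex3bERKO 1 and 4 shared slide 3, and Ex3bERKO 2 and 3 lay on slides 1 and 4. The Ex3aERKO array of slide 3, Ex3aERKO 1, read Insl3 at 6.74, Lcn2 at 3.85 and Ptgds at 5.67. Whether the slide had a part in the order of the Ex3bERKO arrays was not tested.

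The other genes of wide range had other orders of the Ex3bERKO arrays. Pcp4, a calmodulin-binding protein, was at 2.17 on Ex3bERKO 1 and at -2.05, -4.60 and -3.59 on Ex3bERKO 2 to 4, against -5.39 to -3.76 on control. Clca1, a secreted protein of mucous epithelia, was at -2.01 on Ex3bERKO 4 and at -5.93, -6.89 and -7.15 on Ex3bERKO 1 to 3, against -7.23 to -6.18 on control, and was well above background on 2 arrays of each group. Adamdec1, a protease of macrophages, was at -4.28 on Ex3bERKO 3 and at 0.77, 0.93 and 0.13 on Ex3bERKO 1, 2 and 4, against -0.95 to 0.27 on control. Dpt, a matrix protein of the dermis, was at -0.21, -0.33, -4.68 and -2.22 on Ex3bERKO 1 to 4, against -3.06 to -2.37 on control, so that 3 of the 4 arrays lay above the controls and array 3 below them. Ccl11, an eosinophil chemokine, was at -4.47, -2.32, -7.52 and -6.15 on Ex3bERKO 1 to 4, against -3.78 to -3.41 on control, with array 2 above the controls and the others below, and it was well above background on 3 of the 4 Ex3bERKO arrays. Cd5l, a macrophage protein, was at -1.46 on Ex3bERKO 4 and at 3.04, 3.37 and 1.36 on Ex3bERKO 1 to 3, against 1.71 to 2.55 on control. Olfr165, an olfactory receptor, was at -8.41 on Ex3bERKO 4 and at -4.02, -4.26 and -3.96 on Ex3bERKO 1 to 3, against -5.05 to -4.05 on control. It was well above background on 3 of the 4 Ex3bERKO arrays, and -8.41 lay below the lowest signal well above background on Ex3bERKO 4 (-7.09).

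**Figure D3:**
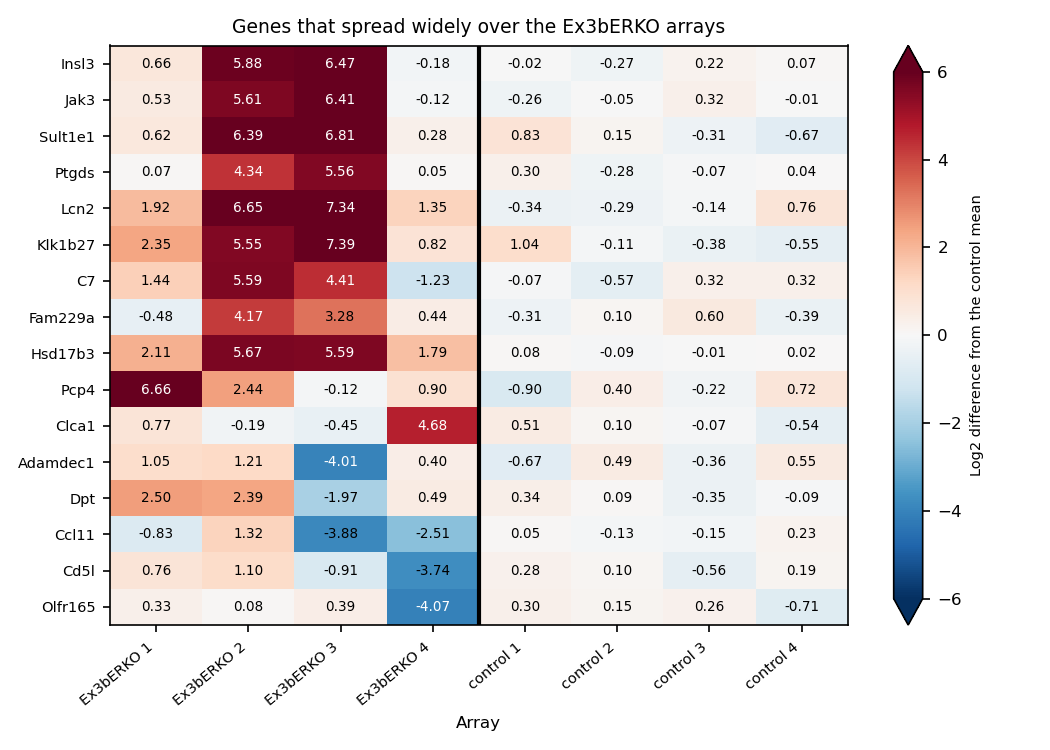
Log2 difference from the control mean (colour and printed number, colour scale ending at -6 and 6) for 16 genes, in rows, on the 4 Ex3bERKO arrays (left of the line) and the 4 control arrays (right). The upper 9 genes, from Insl3 to Hsd17b3, are high on Ex3bERKO 2 and 3, and the lower 7 have other orders of the Ex3bERKO arrays. All but Hsd17b3, a called gene, were chosen by their range.

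Markers of other cells were compared because a whole ovary holds many cell types. Of 14 lymphocyte genes, 0 were called (median 0.16, 10 differences above 0), and Cd3e, a part of the T cell receptor complex, differed by -0.23 ± 0.46 (limma, adjusted p = 0.965). Of 20 macrophage genes, 0 were called, with a median of 0.50 and 19 differences above 0. Their median per array was 0.39, 1.09, 0.57 and -0.27 on Ex3bERKO 1 to 4, against -0.24, 0.02, -0.23 and 0.21 on control 1 to 4. Of 10 surface epithelium genes, 0 were called, and the median was 0.62, with 0.94, 0.84, 1.29 and -0.41 on Ex3bERKO 1 to 4. In both lists Ex3bERKO 4 was the lowest Ex3bERKO array. No gene was called among 14 of endothelium (median -0.29), 12 of stroma and matrix (0.14), 9 of smooth muscle (-0.30), 8 of oviduct (0.35), 7 of liver (0.33), 5 of erythroid cells (-0.45) and 17 of the cell cycle (0.06). Over all features 1.00% were called, so 0 called in lists this short does not show that these cells were unchanged. The erythroid list was high on control 4 (2.60) and between -1.04 and 0.45 on the other 7 arrays. Whether these cell markers had a part in the results above was not tested.

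Of 11 interferon response genes, 0 rose and 1 fell, leaving 10 that did not pass, where 0.622% of all features were called lower. All 11 differences were below 0, with a median of -0.83. Bst2 (tetherin), which holds virus particles at the cell surface, was at 4.51, 4.55, 4.14 and 4.10 on Ex3bERKO 1 to 4, against 5.61, 5.13, 6.03 and 5.93 on control 1 to 4. It fell by 1.35 ± 0.22 (2.56-fold, limma, adjusted p = 0.00861) and was robust, but was lost in a model of the 8 arrays alone (0.0626) and without the 3 marker-high arrays (0.0770). The list's median per array was -0.48, -0.54, -0.85 and -1.30 on Ex3bERKO 1 to 4, against -0.85, 0.20, 0.35 and 0.31 on control 1 to 4, so control 1 lay among the Ex3bERKO arrays. Of 12 immediate early genes, 1 fell, Dusp1, a phosphatase that turns off MAP kinases (0.622% of all features were called lower). Dusp1 fell by 1.97 ± 0.35 (limma, adjusted p = 0.0130), a call lost without control 4 (0.0559), in a model of the 8 arrays alone (0.0799) and without the 3 marker-high arrays (0.0987). Fos, a transcription factor of the same list, differed by 0.27 ± 0.36.

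**Figure D4:**
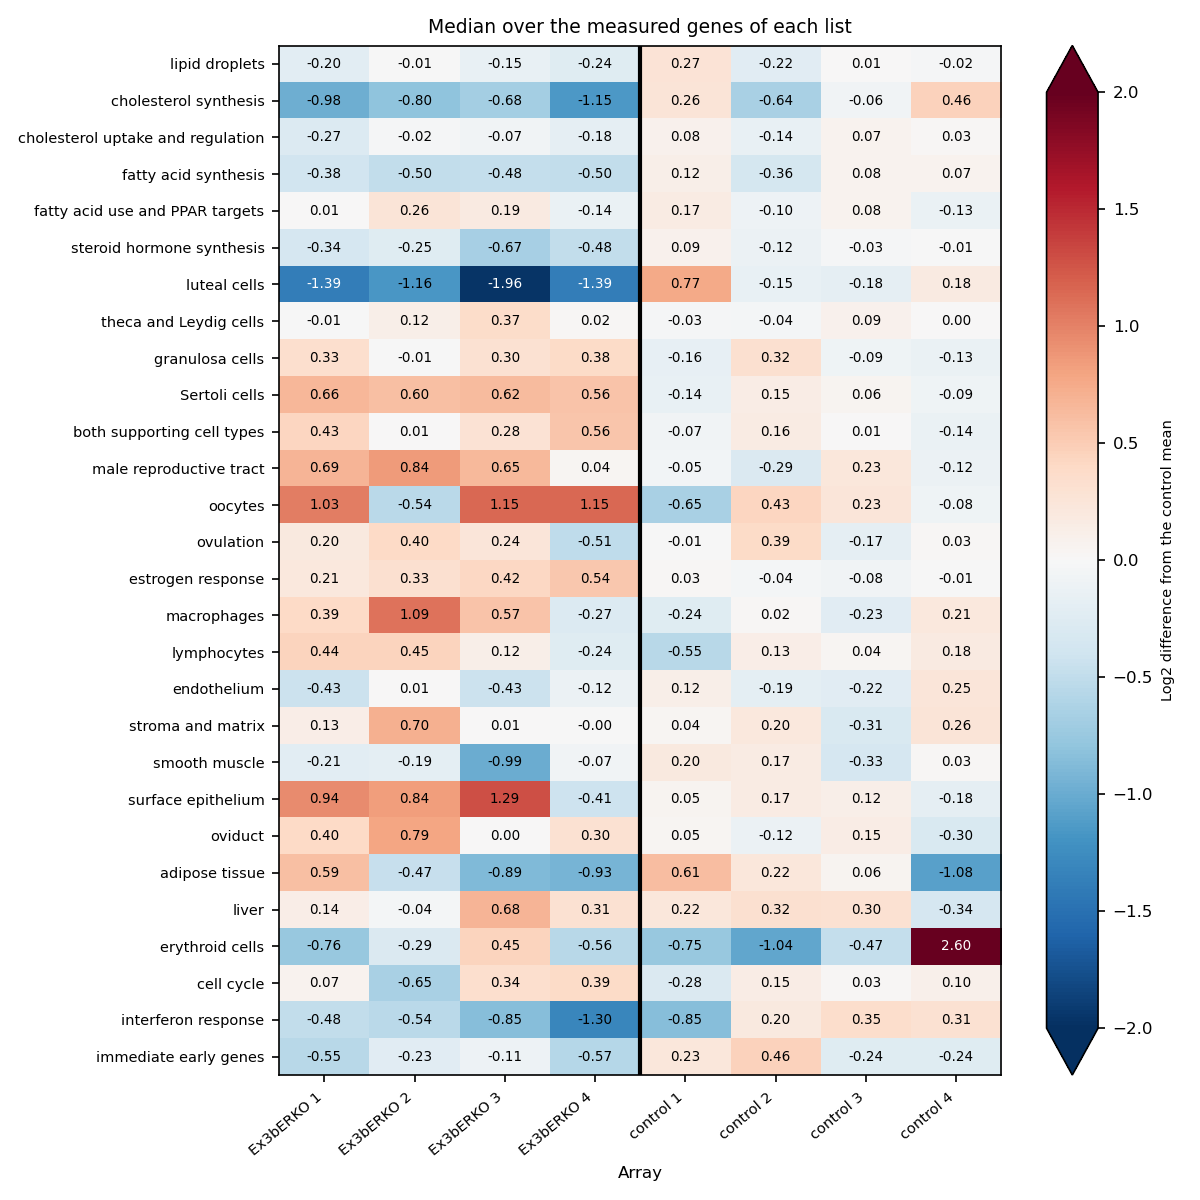
Median over the measured genes of each of 28 gene lists, in rows, of the log2 difference from the control mean (colour and printed number, colour scale ending at -2 and 2), on the 4 Ex3bERKO arrays (left of the line) and the 4 control arrays (right). The luteal list lies between -1.96 and -1.16 on Ex3bERKO arrays and between -0.18 and 0.77 on control arrays, and the oocyte list is low on Ex3bERKO 2 alone among the Ex3bERKO arrays.

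The same model set Ex3bERKO against the other knockouts, and values are given in the main setting only. Some calls of named genes in these comparisons were lost in other settings, which are not listed here. Of the 24591 features, 566 (2.30%) were called against Ex3aERKO and 4083 (16.6%) against Ex3abERKO. These comparisons and the one with control share the Ex3bERKO arrays, so their values are given side by side. The probe of Esr2 was at -1.62, -2.54, -1.61 and -2.53 on Ex3abERKO 1 to 4, and Ex3bERKO was higher by 2.40 ± 0.51 (limma, adjusted p = 0.00634). Against Ex3aERKO, Esr2 differed by 0.53 ± 0.51 (0.784). Esr1 was higher in Ex3bERKO by 1.97 ± 0.38 than in Ex3aERKO (limma, adjusted p = 0.0108) and by 1.23 ± 0.38 than in Ex3abERKO (0.0378). What the Esr2 levels say about the labels was not tested. Plin4 was lower in Ex3bERKO than in each other group: by 1.75 ± 0.38 against Ex3aERKO (limma, adjusted p = 0.0241) and by 1.94 ± 0.38 against Ex3abERKO (0.00362), beside a difference of -5.43 from control. Plin5 differed by -2.41 ± 0.55 against Ex3aERKO (limma, adjusted p = 0.0344) and by -1.31 ± 0.55 against Ex3abERKO (0.125). Cyp17a1 differed by -0.01 ± 0.38 from Ex3aERKO (limma, adjusted p = 0.998) and was higher by 2.98 ± 0.38 than in Ex3abERKO (0.000395). Among ovarian genes, Zp3 was higher in Ex3bERKO by 3.84 ± 0.46 than in Ex3aERKO (limma, adjusted p = 0.000838) and by 3.23 ± 0.46 than in Ex3abERKO (0.000656), and Amh by 2.02 ± 0.45 (0.0278) and 2.20 ± 0.45 (0.00463). Sox9 differed by -0.67 ± 0.37 from Ex3aERKO (limma, adjusted p = 0.519) and was lower in Ex3bERKO by 2.53 ± 0.37 than in Ex3abERKO (0.000786). Hsd17b7 and Mvd passed in neither of these comparisons: Hsd17b7 differed by -0.58 ± 0.45 from Ex3aERKO and 0.20 ± 0.45 from Ex3abERKO, and Mvd by -0.44 ± 0.35 and 0.03 ± 0.35. Of the genes described as robust above, only Plin4, Plin5 and Cyp4f15 were called against Ex3aERKO. Only Plin4, Cyp17a1, Smok4a, Scara5, Klhl29, Runx2 and Cemip were called against Ex3abERKO. Wnt10b differed by -0.85 ± 0.61 from Ex3aERKO and -1.67 ± 0.61 from Ex3abERKO, Cldn18 by -0.27 ± 0.60 and -0.19 ± 0.60, and Eppin by -1.04 ± 0.40 and 0.24 ± 0.40. A gene that did not pass may still differ. Insl3 was between 6.49 and 6.74 on all 4 Ex3aERKO arrays and between 1.89 and 4.49 on the 4 Ex3abERKO arrays, so Ex3bERKO 2 and 3 lay between those groups and Ex3bERKO 1 and 4 lay below both.

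**Figure D5:**
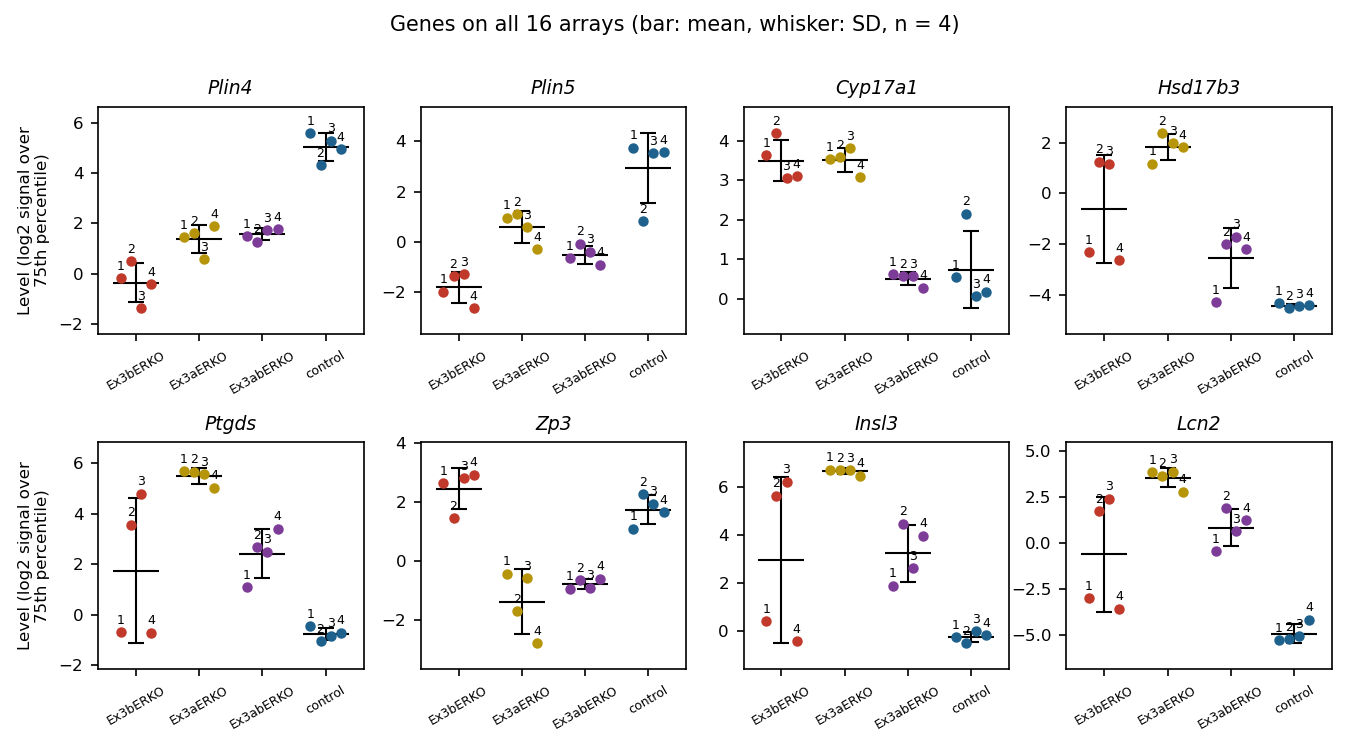
Level of 8 genes (log2 signal over the array's 75th percentile, vertical axis, its range set per panel) on all 16 arrays, by group from left to right (Ex3bERKO, Ex3aERKO, Ex3abERKO, control), numbered by replicate, with the mean as a bar and the SD as a whisker (n = 4 each). Plin4 is lowest in Ex3bERKO, and Hsd17b3, Ptgds, Insl3 and Lcn2 lie in 2 clusters over the Ex3bERKO arrays.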

How the data were processed

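RNA from whole ovaries was hybridised to 16 single-colour Agilent arrays, 4 per group, and samples were grouped by their titles. Agilent Feature Extraction made the deposited spot intensity values, per the file headers, with background subtracted and no scaling between arrays; the submitters' processing notes name version 9.5. The deposited series table held the same intensity values (658784 of 658784 equal within a relative tolerance of 1e-04). Here the processed signal was scaled to the 75th percentile of the array, then put on the log2 scale. Outlier spots were left out (54 to 106 per array), control spots too, saturated spots were kept (at most 7 per array), and spots of a probe were averaged. Probes were kept if 4 or more of the 16 arrays read them well above background, and the brightest probe represented a gene, which left 24591 features, 18298 of them with a symbol. Of 41174 probes, 22951 were named through their accession in RefSeq (GRCm38.p6), 6659 by a current and 3109 by an older symbol, and 8455 had none. Probe coordinates are those of the files (mm7), where exons and untranslated regions were not analysed. The number of arrays limits the precision.

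The test was limma 3.58.1 (R 4.3.3): lmFit and eBayes over all 16 arrays, 1 mean per group, 12 residual degrees of freedom, two-sided, Benjamini-Hochberg adjustment over the 24591 features, called under 0.05. Values after ± are standard errors of that model, n = 4 per group. A gene well above background on no array of a group got only a bound, from the lowest signal well above background on each array. On simulated data for these genes, 26% of 100 features changed by 1 and 75% of 100 changed by 2 on the log2 scale were recovered for Ex3bERKO against control, and 4 unchanged features were called. The simulated noise was independent between arrays, of the same spread in every group and without slide effects. The real arrays share deviations within slides, so these rates need not hold for them.

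Genes were named by rule: up to 15 per direction with the largest change among genes robust as defined above, each called member and the key members of 28 gene lists, Esr1 and Esr2, and the 15 of widest range in Ex3bERKO; some of these are not reported here. The members and lists, from textbook knowledge, were chosen with earlier results of these data known. Replicate numbers were checked and do not pair the samples (deviations of same-numbered arrays correlated from -0.29 to 0.39), while slides carried shared deviations, so slide was fitted as a block. Alternatives changed the scaling, background correction, filter, probe choice, model and arrays; the fit without 3 arrays was chosen after seeing the data.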

Additional observations from a re-analysis of the deposited data

Results flagged for a closer look

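In 13 of 172 groups of 4 arrays among the named genes, 1 array lay far from the other 3, measured as its gap to the nearest other array over the range of the group. Chance gives this in about 1 in 20 groups not chosen by their values; many of these genes were chosen by their change or range, so that rate does not apply to them. Array Ex3bERKO 4 stood apart in Dhcr7 (0.87 of the range, at 2.28), Sox9 (0.84, at -2.83), Adgre1, the macrophage marker F4/80 (0.921, at 1.59), and Olfr165 (0.931, at -8.41). For Olfr165 that level lay below the lowest signal well above background on the array (-7.09). Array Ex3bERKO 2 stood apart in Gdf9 (0.863, at 2.88) and array Ex3bERKO 3 in Adamdec1 (0.845, at -4.28). Among the controls, control 2 stood apart in 5 genes. It was low in Plin5 (0.927, at 0.83) and Runx2 (0.959, at 1.33), and high in Cyp19a1 (0.892, at 3.56), Alb, the serum albumin gene (0.864, at -4.55), and Esr2 (0.833, at 0.34). Control 4 stood apart in Alas2, which makes heme in red cell precursors (0.832, at 2.09), and in Olfr165 (0.851, at -5.05). In Plin5 and Runx2, control 2 lay between the Ex3bERKO arrays and the other controls.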

How the results depend on the processing

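The number of genes called was 247. It was within 1.5 times that number with median scaling, quantile normalization, normexp, the series table, no filter, a filter on all 16 arrays, averaged probes, slide as a fixed (176) or random (346) block, and trend and robust. It was 794 with array weights, 85 in a model of the 8 arrays alone and 63 without Ex3aERKO 2, Ex3abERKO 2 and control 4, chosen after seeing the data. Calls without overlap of the groups numbered 243, and 670, 85 and 63 in those 3 settings. Leaving out 1 of the 8 arrays gave 108 to 362 calls, 108 to 361 of them without overlap. With the replicate number as a block, 205 were called. No value changed its sign under any alternative while called, and of the named genes 20 calls were lost in the model of the 8 arrays alone and 15 without the 3 arrays. The cause of these changes was not tested, beyond fewer arrays leaving fewer degrees of freedom. Unadjusted p-values were under 0.05 for 2397 features.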

Other observations

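These families were looked up after values were seen, so they are descriptions. Of 24 glutathione transferase genes, which join glutathione to lipid oxidation products and drugs, 4 were called higher in Ex3bERKO (Gsta3, Gstm1, Gstm2 and Gstm3), 0 lower, and 19 differences were above 0 (median 0.28), where 0.382% of all features were called higher. Gstm1 was at 7.59, 7.48, 7.74 and 7.73 on Ex3bERKO 1 to 4, against 6.81, 7.02, 7.12 and 6.80 on control 1 to 4. Gstm2 rose by 1.37 ± 0.22 (limma, adjusted p = 0.00686) and Gstm3 by 1.01 ± 0.15 (0.00422), without overlap. The Gstm genes lie in 1 cluster on chromosome 3 and are alike in sequence, so cross-hybridisation of their probes cannot be told apart from separate changes.

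Of 8 Serpina3 genes, serine protease inhibitors related to human antichymotrypsin, 3 were called higher (0.382% of all features), and all 8 differences were above 0 (median 1.88). Serpina3n was at -2.17, 0.92, -0.34 and -2.68 on Ex3bERKO 1 to 4, against -3.71, -4.50, -4.64 and -5.05 on control 1 to 4, and rose by 3.41 ± 0.63 (limma, adjusted p = 0.0173). Serpina3c rose by 2.37 ± 0.43 and Serpina3m by 2.09 ± 0.41, and these too are close paralogues. Of 9 Abcb transporters, the neighbours Abcb1b and Abcb4 on chromosome 5 fell, where 0.622% of all features were called lower. Abcb1b, which exports drugs and steroids, was at 2.06, 1.08, -0.15 and -0.35 on Ex3bERKO 1 to 4, against 2.75, 3.43, 4.18 and 4.09 on control 1 to 4. It fell by 2.95 ± 0.51 (limma, adjusted p = 0.0109), and Abcb4, which moves phospholipid, by 2.11 ± 0.44 (0.0331).

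Of the genes near Esr2 on chromosome 12 (mm7), 2 of 98 features within 5 Mb on each side were called (2.04%), and 2 of 220 within 10 Mb (0.909%), against 1.00% of all features. The named one was Fut8, a fucosyltransferase.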
